A study of Mus musculus with 16 samples.

Results

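The genes described here were 78 voltage-gated and potassium channel subunits measured in CD11b+ brain cells of mice. They were the rows whose names follow the Kcn, Scn and Cacn patterns of potassium, sodium and calcium channel genes and that had more than 10 counts in at least 4 of the 16 libraries. Of 24421 rows, 123 carried such a name once 8 potassium channels counted as microglial (Kcnk13, Kcnk6, Kcnj2, Kcnn4, Kcna3, Kcna5, Kcnj8 and Kcnj13) were left out, and 78 of the 123 passed, among 14565 genes that passed in all. The row Scn2a1 has a digit after the letter that closes the names of the other sodium channel pores and did not match the pattern, so it was not a member. The 45 names that did not pass included Scn1a, Cacna1b, Kcnq3, Kcnj3 and Kcnj6. The largest total among these 45 was 127 counts over the 16 libraries, and 4 of them had 0 counts in every library.

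All mice were females of the C57BL/6J strain, were put on their diets at weaning at 3 weeks of age and stayed on them for 1 month. CON mice (n = 4 libraries) ate standard chow, and MAL mice (n = 5) ate a malnourished diet of equal calories, low in protein and fat. MAL-BG mice (n = 7) ate the malnourished diet and were also gavaged 3 times within 5 days with a cocktail of Escherichia coli and Bacteroidales species, whereas CON and MAL mice were gavaged with PBS. The design thus holds no group with bacteria on standard chow. The cells were held by magnetic beads against CD11b, a surface integrin of microglia and other myeloid cells, after dissociation with a commercial kit. The sample labels name cortical tissue as the source, whereas the methods of the study name whole cerebra.

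Voltage-gated channels are membrane pores that open or close as the membrane potential changes. Sodium channels carry the rising phase of the action potential, potassium channels end it and set the resting potential, and calcium channels couple it to transmitter release and gene expression. In the brain these families are best known from neurons, while some inward rectifier and leak potassium channels are known from astrocytes and from the epithelium of the choroid plexus, and microglia carry a small potassium channel set of their own.

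Library totals lay between 10312703 and 13461574 counts in CON and MAL and between 14191791 and 18705202 in MAL-BG, so every MAL-BG library was deeper than every other library. The labels do not tie each library to a separate mouse, and p-values measure the spread between these samples, part of which may be technical. All 10 microglia markers were detected, with a summed level of 16037 to 25860 CPM (counts scaled to library size) in CON, 16547 to 28460 in MAL and 34216 to 47075 in MAL-BG. The libraries also held RNA of other brain cells. Summed levels of 6 choroid plexus markers reached 13665 to 53052 CPM in CON, 6329 to 41747 in MAL and 1743 to 16220 in MAL-BG. Within their groups CON replicate 1 and MAL replicates 1 and 4 had the lowest choroid plexus sums and the lowest summed levels of the channel members.

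Each of the 14 channel families held subunits whose RNA was lower in MAL-BG than in CON, with the lowest family medians in the calcium channel gamma subunits (-3.41) and the KCNH channels (-3.17). In MAL-BG versus CON, 47 of the 78 members (60.3%) were lower DEGs (differentially expressed genes), with an adjusted p under 0.05 in the quasi-likelihood test of edgeR (adjusted by Benjamini-Hochberg over all genes) and an absolute log2 fold change above 0.58, while lower DEGs made up 21.7% of all genes tested. A single member, Kcnd1, was a higher DEG against CON, where 11.4% of all genes were. In MAL-BG versus MAL, 46 members (59.0%) were lower DEGs beside 20.2% of all genes, and 5 members, among them Kcnd1, Kcng2, Kcnq1 and Kcnk12, were higher DEGs beside 10.2%. The comparisons share the 7 MAL-BG libraries, and their values are therefore given side by side and not as repeats of each other. The median log2 fold change of the members was -1.35 against CON and -1.06 against MAL, where the median of all genes was -0.04 and -0.03. The study's own model held a term for batch, which was not fitted here because the batch of each library is not given in the sources used here. The part of batch in these differences was therefore not tested. In MAL versus CON, 0 members and 0 of all genes (0%) were DEGs.

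**Figure D1:**
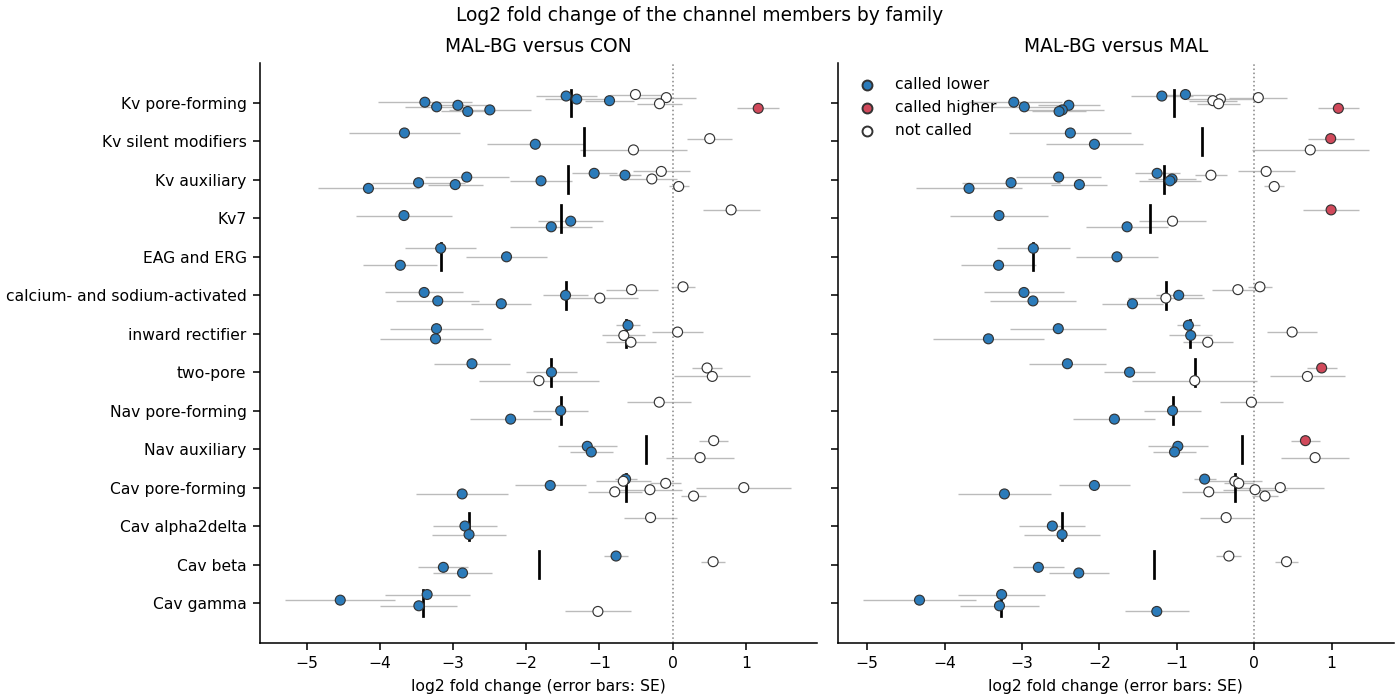
Log2 fold change of each of the 78 members in MAL-BG versus CON (left) and MAL-BG versus MAL (right), 1 row a family, with SE bars, filled points for DEGs and a black line at the median of each family. Most points lie left of 0, except among the sodium channel beta (Nav auxiliary) subunits in both panels and the silent Kv subunits (Kv silent modifiers) in the right panel, where 2 of 4 do, and the points furthest right are Kcnd1, Cacna1f and Kcnq1 against CON.

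By call, 42 members were lower in both comparisons, 5 lower against CON only (among them Kcna7, Kcnab3 and Cacnb1) and 4 lower against MAL only (Kcna1, Kcne3, Kcnj16 and Cacng8). Kcnd1 was higher in both, 4 members were higher against MAL only, and 22 were DEGs in neither. No share of all genes is given beside these joint counts, and the 7 MAL-BG libraries shared by the comparisons favour equal calls. In 20 of the 78 members all 7 MAL-BG libraries lay below all 9 CON and MAL libraries, as they did in 6.36% of all genes, and in 0 members they all lay above, beside 6.17% of all genes. Of these 20, 13 had more than 10 counts in fewer than 4 MAL-BG libraries. These 13 passed the filter with the help of CON and MAL libraries, so their place below is a description. The other 7 were among the 52 members with more than 10 counts in at least 4 MAL-BG libraries. Among the 20 were Kcnc1, Kcnc4, Kcnd3, Kcnab3, Kcnip1, Kcnip2, Kcnip4, Kcnh3, Kcnmb4, Kcnn3, Kcnj4, Cacna1e, Cacna2d2, Cacnb3, Cacnb4, Cacng2, Cacng3 and Cacng7. The summed CPM of the members was 885 ± 145 (SD, n = 4) in CON and 784 ± 143 (n = 5) in MAL versus 595 ± 96.8 (n = 7) in MAL-BG, with overlap between the groups.

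**Figure D2:**
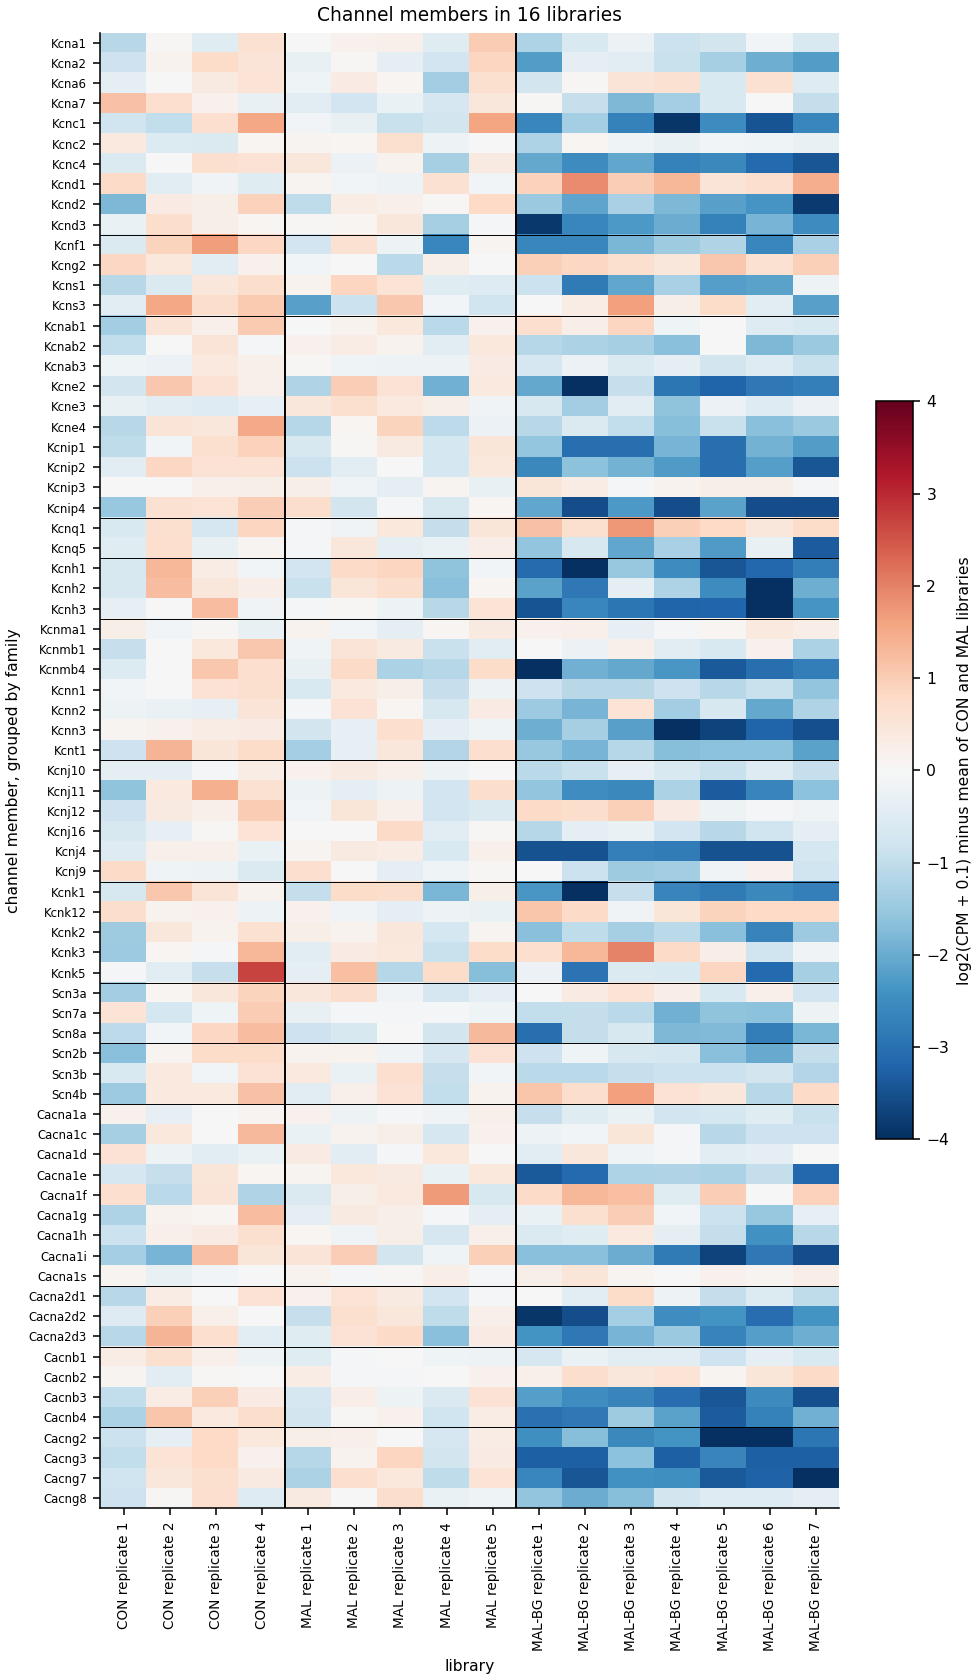
Heat map of log2(CPM + 0.1) of 73 of the 78 members in the 16 libraries, each row shown relative to its mean over the 9 CON and MAL libraries. The 7 MAL-BG columns are blue for most members, and CON replicate 1 and MAL replicate 4 are bluer than the other libraries of their groups.

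The promoter windows of the members, taken from RefSeq on GRCm38.p6, run from 250 bases before to 50 bases after a transcript start and were found for 58 of the 78 members (90 windows). They were richer in G and C (median 58.2%) than all 32851 windows of the table (52.7%), and the 50 windows of members lower in both comparisons had a median of 62.5%. The letters TATAAA on either strand stood in 4.44% of the members' windows and in 0 of those 50, beside 13.6% of all windows. GGGCGG stood in 45.6% of the members' windows beside 35.7% of all. The letters CAGCACC, from the first part of the binding motif of the neuronal repressor REST, stood in 4.44% of the members' windows beside 7.14% of all, and GGACAGC, from its second part, in 8.89% beside 6.56%. These shares are descriptions of letters, and no binding was measured here. Windows are shown for Kcnk1, Kcnj4 and Kcnh2, members lower in both comparisons that hold one of the latter sets of letters. Each is written 5′ to 3′ along the gene, with capitals at matches to any of the 4 motifs on either strand.
Kcnk1 (chr8:125994852-125995151, plus strand): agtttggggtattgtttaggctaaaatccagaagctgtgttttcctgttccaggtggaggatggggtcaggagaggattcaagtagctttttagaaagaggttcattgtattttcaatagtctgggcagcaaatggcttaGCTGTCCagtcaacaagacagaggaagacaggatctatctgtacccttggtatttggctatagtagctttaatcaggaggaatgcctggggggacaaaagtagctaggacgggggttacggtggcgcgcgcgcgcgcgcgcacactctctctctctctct
Kcnj4 (chr15:79505192-79505491, minus strand): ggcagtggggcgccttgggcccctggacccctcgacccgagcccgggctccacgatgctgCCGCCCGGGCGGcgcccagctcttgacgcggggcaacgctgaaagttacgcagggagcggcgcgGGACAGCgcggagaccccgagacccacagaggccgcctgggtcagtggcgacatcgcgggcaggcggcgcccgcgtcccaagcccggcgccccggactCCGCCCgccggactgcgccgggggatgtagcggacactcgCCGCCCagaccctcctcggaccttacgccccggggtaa
Kcnh2 (chr5:24329542-24329841, minus strand): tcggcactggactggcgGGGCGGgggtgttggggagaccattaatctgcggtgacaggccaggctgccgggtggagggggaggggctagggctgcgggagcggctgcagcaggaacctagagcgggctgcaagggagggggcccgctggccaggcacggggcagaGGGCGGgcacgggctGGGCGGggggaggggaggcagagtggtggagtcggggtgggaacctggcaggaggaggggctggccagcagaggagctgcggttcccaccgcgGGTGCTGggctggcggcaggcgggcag

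Pore-forming subunits of the Kv1 to Kv4 potassium channels split within the family. Of 12 tested, 8 were lower and 1 was higher against CON, and 7 were lower and 1 was higher against MAL. Of all genes, 21.7% and 20.2% were lower and 11.4% and 10.2% were higher against CON and MAL. The Kv3 genes Kcnc1 and Kcnc4 code for fast potassium channels that allow rapid firing, and both were lower in both comparisons, with log2 fold changes of -3.39 and -3.11 and of -3.22 and -2.97 against CON and MAL. Kcnc1 was at 1.31, 1.11, 3.78 and 7.04 CPM in the CON libraries, at 2.13, 1.86, 1.20, 1.37 and 7.09 CPM in the MAL libraries, and from 0.0623 to 0.843 (median 0.295) in MAL-BG. Every MAL-BG library was thus below every other library, and the highest values were in CON replicate 4 and MAL replicate 5. Kcnc2, also a Kv3 gene, was not a DEG (log2 fold change -0.18 ± 0.30, adjusted p = 0.656 against CON, edgeR).

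The Kv4 genes moved in opposite directions. Kcnd2 and Kcnd3, which code for the pores of the A-type current in neuronal dendrites, were lower in both comparisons. Kcnd3 was at 3.92, 7.79, 5.67 and 5.07 CPM in the CON libraries, at 4.94, 5.07, 6.62, 1.85 and 4.62 CPM in the MAL libraries, and from 0.236 to 1.25 (median 0.742) in MAL-BG (log2 fold change -2.80 ± 0.37, adjusted p = 4.29e-05 against CON, edgeR). For Kcnd2 the means were 1.53 ± 0.932 CPM (SD, n = 4) in CON and 1.51 ± 0.642 (n = 5) in MAL versus 0.262 ± 0.159 (n = 7) in MAL-BG, with CON replicate 1 inside the MAL-BG range. Kcnd1, the third Kv4 pore, was higher in MAL-BG. Kcnd1 was at 99.4, 42.6, 53.04 and 41.5 CPM in the CON libraries, at 63.4, 54.3, 51.2, 89.9 and 54.5 CPM in the MAL libraries, and from 83.4 to 218 (median 117) in MAL-BG. The lowest MAL-BG libraries overlapped CON replicate 1 and MAL replicate 4, and on the log2 scale it differed by 1.17 ± 0.29 relative to CON (adjusted p = 0.00360) and 1.09 ± 0.26 relative to MAL (adjusted p = 0.00347). Kcnd1 stayed a higher DEG in both comparisons under every alternative tried and with any library left out.

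Among the Kv1 pores, Kcna2, found along axons, was lower in both comparisons (-1.45 ± 0.42 relative to CON, adjusted p = 0.00980, and -1.19 ± 0.40 relative to MAL, adjusted p = 0.0227), while Kcna1, which often shares a channel with it, was lower against MAL only (-0.51 ± 0.35 relative to CON, adjusted p = 0.250, and -0.89 ± 0.33 relative to MAL, adjusted p = 0.0351). Kcna6 did not differ detectably (-0.09 and 0.05), and Kcna7 was lower against CON only (-1.31 and -0.44). The call of Kcna1 against MAL was lost in 8 of the 16 (-1.03 to -0.61 over all 16), and that of Kcna2 against MAL without MAL replicate 5 (-0.86).

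Silent subunits form no channel alone and change the Kv pores they join. They were lower in 2 of 4 cases in each comparison, beside 21.7% and 20.2% of all genes against CON and MAL. Kcnf1 summed to 51 counts in the 4 CON libraries, 26 in the 5 MAL libraries and 8 in the 7 MAL-BG libraries (-3.66 and -2.38 on the log2 scale). Its call against MAL was lost without MAL replicate 2 (-1.96) and without MAL replicate 5 (-2.25). Kcns1 was lower in both (-1.88 and -2.06), Kcns3 in neither (-0.53 and 0.72), and Kcng2 was at 1.53 ± 0.569, 1.09 ± 0.347 and 2.18 ± 0.353 CPM in CON, MAL and MAL-BG, a higher DEG against MAL (log2 fold change 0.99 ± 0.29, adjusted p = 0.0125).

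Auxiliary subunits of Kv channels were lower in 7 of 10 cases in each comparison, beside 21.7% and 20.2% of all genes against CON and MAL. KChIPs are calcium-binding partners of the Kv4 pores, and 3 of the 4 tested were lower in both comparisons with all MAL-BG libraries below the others. Kcnip4 summed to 71 counts in CON and 63 in MAL versus 8 in MAL-BG, where 4 of 7 libraries had 0 counts, which allows up to 3 in a library. By counts scaled to library size this was a 19.5-fold lower level than in CON (95% exact interval 9.39 to 46.9, which covers counting error only), and the fitted log2 fold change was -4.16 ± 0.69 relative to CON (adjusted p = 2.51e-04) and -3.68 ± 0.68 relative to MAL (adjusted p = 5.51e-04). Kcnip1 summed to 45, 44 and 8 counts in the same order, and Kcnip2 was at 4.65 ± 1.53, 2.83 ± 1.13 and 0.588 ± 0.272 CPM. Kcnip4 and Kcnip1 passed the filter on low counts through CON and MAL libraries only, so their values are a description. Kcnip3, also known as a transcriptional repressor, did not follow the other KChIPs. Kcnip3 was at 21.8, 21.5, 24.7 and 25.5 CPM in the CON libraries, at 25.8, 19.8, 16.7, 23.6 and 17.8 CPM in the MAL libraries, and from 20.5 to 30.1 (median 25.4) in MAL-BG, with overlapping groups and log2 differences of 0.08 ± 0.14 relative to CON (adjusted p = 0.647) and 0.26 ± 0.13 relative to MAL (adjusted p = 0.115).

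The beta subunits of Kv1 channels differed among themselves. Kcnab2 was lower in both comparisons (-1.07 ± 0.31 relative to CON, adjusted p = 0.00992, and -1.25 ± 0.29 relative to MAL, adjusted p = 0.00270), Kcnab1 in neither (-0.15 and 0.15), and Kcnab3 passed the fold threshold against CON only (-0.65 and -0.56). One MAL-BG library, replicate 5, stood at 30.3 CPM for Kcnab2, above the other 6 (at most 13.6), and without CON replicate 3 the call against CON was lost (-0.83). The KCNE peptides modify several potassium channels, and Kcne2 is known for its place in the choroid plexus epithelium. Kcne2 was at 62.96, 220.1, 156 and 119 CPM in the CON libraries, at 45.4, 206, 156, 27.5 and 136 CPM in the MAL libraries, and from 3.75 to 55.1 (median 14.1) in MAL-BG. MAL-BG replicate 3 lay above MAL replicates 1 and 4 and below every CON library. Kcne2 differed on the log2 scale by -2.81 ± 0.57 relative to CON (adjusted p = 0.00103) and -2.53 ± 0.55 relative to MAL (adjusted p = 0.00170). Kcne2 was the member with the highest level per kilobase of exon in CON (79.0 CPM per kb). Kcne4 was lower in both (-1.80 ± 0.42 relative to CON, adjusted p = 0.00272, and -1.09 ± 0.40 relative to MAL, adjusted p = 0.0371), although 7 of the 16 fits with a library left out lost its call against MAL (-1.27 to -0.68 over all 16). Kcne3 was lower against MAL only (-0.28 and -1.06).

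The Kv7 channels carry the M current, a slow potassium current that restrains repetitive firing. Kcnq5 was lower in both comparisons (-1.66 ± 0.56 relative to CON, adjusted p = 0.0231, and -1.64 ± 0.53 relative to MAL, adjusted p = 0.0186), and the means of Kcnq5 were 0.948 ± 0.390 CPM (SD, n = 4) in CON and 0.930 ± 0.252 (n = 5) in MAL versus 0.292 ± 0.253 (n = 7) in MAL-BG. Kcnq1, known best from heart and epithelia, was at 1.57 ± 0.879, 1.37 ± 0.512 and 2.73 ± 0.927 CPM in CON, MAL and MAL-BG, and was a higher DEG against MAL (log2 fold change 0.99 ± 0.36, adjusted p = 0.0356). The call against MAL was lost in 4 fits, without MAL replicate 1 (0.97), MAL replicate 2 (0.95), MAL replicate 4 (0.82) or MAL-BG replicate 3 (0.82). Against CON (0.80) it was not called, but became a higher DEG without CON replicate 4 (1.13) and with length and GC offsets and scaling by mean log2 CPM (1.07).

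All 3 KCNH members tested were lower in both comparisons, where 21.7% and 20.2% of all genes were lower against CON and MAL. Kcnh3 codes for a channel of forebrain neurons. Kcnh3 was at 3.38, 4.27, 10.2 and 3.86 CPM in the CON libraries, at 4.001, 4.40, 3.70, 1.93 and 6.29 CPM in the MAL libraries, and from 0 to 0.742 (median 0.380) in MAL-BG. The MAL-BG libraries lay below all others, and CON replicate 3 stood far above the rest of its group. The log2 fold change of Kcnh3 was -3.72 ± 0.50 relative to CON (adjusted p = 5.50e-05) and -3.30 ± 0.49 relative to MAL (adjusted p = 1.04e-04). Kcnh3 passed the filter on low counts through CON and MAL libraries only, so these values are a description. Kcnh1 (EAG1) was at 27.5 ± 17.2 CPM in CON and 22.1 ± 13.7 in MAL versus 3.05 ± 1.96 in MAL-BG (-3.17 and -2.85), and Kcnh2 (ERG1) at 35.2 ± 18.4, 24.9 ± 14.2 and 7.31 ± 6.12 CPM (-2.27 and -1.77). For both, the highest MAL-BG library lay above MAL replicate 4, and for Kcnh2 it also lay above CON replicate 1 and MAL replicate 1.

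Of 7 potassium channel subunits gated by calcium or sodium, 4 were lower in each comparison, beside 21.7% and 20.2% of all genes against CON and MAL. The beta subunit Kcnmb4, the neuronal partner of the large-conductance channel, was lower with no overlap (-3.40 and -2.97), whereas the pore of the same channel, Kcnma1, did not differ detectably. Kcnma1 was at 14.1, 11.1, 12.4 and 9.76 CPM in the CON libraries, at 13.4, 11.04, 9.38, 12.8 and 15.5 CPM in the MAL libraries, and from 9.58 to 15.9 (median 13.6) in MAL-BG (log2 fold change 0.14 ± 0.17, adjusted p = 0.511 against CON, edgeR). With length and GC offsets and scaling by mean log2 CPM, Kcnma1 became a higher DEG in both comparisons (0.75 and 0.69), but not with these offsets and TMM scaling (0.49 and 0.46). Small-conductance channels shape the pause after a spike, and Kcnn1 (-1.46 and -0.98) and Kcnn3 (-3.21 and -2.86) were lower. Kcnn2 was not a DEG (-0.99 and -1.14), but became a lower DEG in both comparisons without MAL-BG replicate 3 (-1.58 and -1.73). The sodium-activated pore Kcnt1 was lower in both (-2.34 ± 0.41 relative to CON, adjusted p = 3.69e-04, and -1.57 ± 0.40 relative to MAL, adjusted p = 0.00458), and the smooth muscle beta subunit Kcnmb1 in neither (-0.56 and -0.21).

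Inward rectifiers hold the resting potential and clear extracellular potassium. Kcnj10 (Kir4.1), the main rectifier of astrocytes, also present in oligodendrocytes, was lower with a modest fold. Kcnj10 was at 20.8, 21.1, 25.9 and 33.3 CPM in the CON libraries, at 30.7, 35.1, 31.8, 24.01 and 27.8 CPM in the MAL libraries, and from 12.97 to 21.6 (median 14.9) in MAL-BG. No MAL-BG library reached the lowest MAL library, and 1 exceeded CON replicates 1 and 2. It differed by a log2 fold change of -0.61 ± 0.16 relative to CON (adjusted p = 0.00632) and -0.85 ± 0.15 relative to MAL (adjusted p = 4.31e-04), and the call against CON was lost without CON replicate 4 (-0.45) or without MAL-BG replicate 1, 2, 4 or 7 (-0.57 to -0.50). Its partner Kcnj16 was a DEG against MAL only (-0.67 and -0.82), a call lost without MAL replicate 3 (-0.60) or MAL-BG replicate 1 (-0.71). Without CON replicate 1 it was also called against CON (-0.83). The neuronal rectifier Kcnj4 (-3.24 and -3.43) and the ATP-sensitive pore Kcnj11 (-3.23 and -2.53) had larger folds on few counts, with 10 counts of Kcnj4 in MAL-BG. Kcnj9 (-0.57 and -0.60) and Kcnj12 (0.07 and 0.49) were DEGs in neither comparison.

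K2P leak channels set the background potassium conductance. Of the 5 tested, 2 were lower in each comparison, beside 21.7% and 20.2% of all genes against CON and MAL. Kcnk1 was at 27.9, 90.9, 61.8 and 47.8 CPM in the CON libraries, at 22.4, 72.4, 69.7, 12.01 and 50.6 CPM in the MAL libraries, and from 1.76 to 22.95 (median 6.79) in MAL-BG. Kcnk1 (TWIK1) spread widely within CON and MAL, with the lowest values in CON replicate 1, MAL replicate 1 and MAL replicate 4, and MAL-BG replicate 3 lay above both of these MAL libraries and below every CON library. Its log2 fold change was -2.74 ± 0.52 relative to CON (adjusted p = 6.27e-04) and -2.41 ± 0.50 relative to MAL (adjusted p = 0.00120). Kcnk2 (TREK1) was lower in both (-1.66 and -1.61). Kcnk12 was at 21.2 ± 5.76, 16.1 ± 2.43 and 29.4 ± 6.97 CPM and a higher DEG against MAL (log2 fold change 0.87 ± 0.19, adjusted p = 0.00190), with 0.47 against CON (adjusted p = 0.0694, edgeR), where it was called without CON replicate 1 (0.67). Kcnk3 (0.54 and 0.69) and Kcnk5 (-1.83 and -0.77) were DEGs in neither.

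Of the sodium channel pores, Scn8a (Nav1.6), the main pore of mature axons, was lower, from 3.66 ± 2.27 CPM in CON and 2.76 ± 2.20 in MAL to 0.793 ± 0.515 in MAL-BG (-2.21 ± 0.55 relative to CON, adjusted p = 0.00408, and -1.81 ± 0.53 relative to MAL, adjusted p = 0.0114), and without MAL replicate 5, the highest library, the call against MAL was lost (-1.19). Scn7a, a sodium-sensing relative, was lower in both (-1.53 and -1.06). Scn3a, a pore of the developing brain, did not differ detectably (-0.18 and -0.04), and its sign changed with the settings. The beta subunits are adhesion molecules that tune the pore. Scn2b (-1.17 ± 0.40 relative to CON, adjusted p = 0.0266, and -0.99 ± 0.38 relative to MAL, adjusted p = 0.0456) and Scn3b (-1.11 ± 0.30 relative to CON, adjusted p = 0.00614, and -1.03 ± 0.28 relative to MAL, adjusted p = 0.00723) were lower, and the call of Scn2b against MAL was lost in 10 of the 16 fits with a library left out (-1.13 to -0.82 over all 16) and its call against CON without CON replicate 3 (-0.95), CON replicate 4 (-0.95) or MAL-BG replicate 7 (-1.08). Scn4b was a DEG in neither comparison (0.38 and 0.79).

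**Figure D3:**
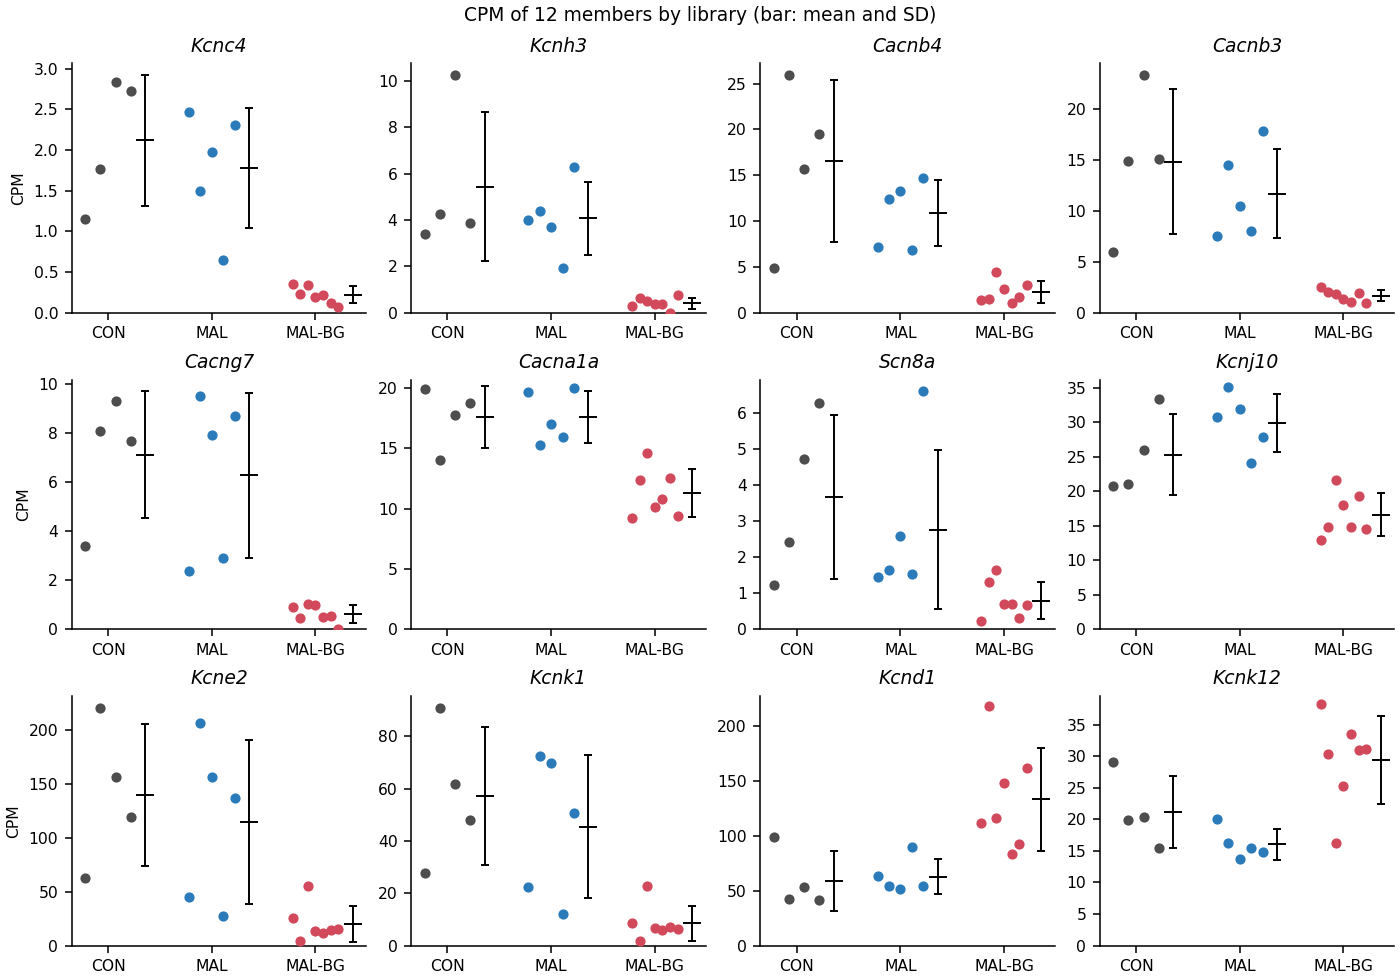
CPM of 12 members in each library of CON, MAL and MAL-BG, on linear axes from 0, with the mean and SD beside the points. Kcnc4, Kcnh3, Cacnb4, Cacnb3 and Cacng7 show no overlap between MAL-BG and the other groups, Kcne2 and Kcnk1 spread widely within CON and MAL, and Kcnd1 and Kcnk12 are the members shown with higher means in MAL-BG.

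Among the calcium channel pores, 3 of 9 were lower in each comparison, beside 21.7% and 20.2% of all genes against CON and MAL. Cacna1e (R type) and Cacna1i (T type) had large folds, -1.67 and -2.06 and -2.88 and -3.23 against CON and MAL, and the call of Cacna1e against CON was lost without CON replicate 3 (-1.37). Cacna1a was at 19.9, 14.01, 17.7 and 18.8 CPM in the CON libraries, at 19.7, 15.3, 17.04, 15.96 and 19.99 CPM in the MAL libraries, and from 9.20 to 14.6 (median 10.8) in MAL-BG. Cacna1a, the P/Q-type pore of presynaptic terminals, differed by -0.64 ± 0.15 relative to CON (adjusted p = 0.00267) and -0.64 ± 0.14 relative to MAL (adjusted p = 0.00187), and 1 MAL-BG library lay above the lowest CON library. This change was close to the fold threshold and was lost against CON without CON replicate 1 (-0.58) or MAL-BG replicate 1 (-0.55), 4 (-0.57) or 7 (-0.54), and with length and GC offsets (-0.22 with TMM scaling and 0.036 with scaling by mean log2 CPM). Against MAL it was lost without MAL-BG replicate 1 (-0.56), 4 (-0.57) or 7 (-0.55). The L-type pores were not DEGs. Cacna1d was at 95.1, 56.1, 48.1 and 53.7 CPM in the CON libraries, at 81.2, 47.8, 61.6, 86.1 and 63.7 CPM in the MAL libraries, and from 46.3 to 87.3 (median 57.9) in MAL-BG (log2 fold change -0.09 ± 0.21, adjusted p = 0.738 against CON, edgeR). Cacna1c had log2 fold changes of -0.67 and -0.25 and Cacna1s of 0.29 and 0.14. Without CON replicate 1 Cacna1c became a lower DEG against CON (-0.98), and Cacna1d changed sign (0.17). Cacna1f (0.97 and 0.34), Cacna1g (-0.31 and 0.01) and Cacna1h (-0.79 and -0.59) were also DEGs in neither.

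Beta subunits bind the pore from inside the cell. Cacnb3 was at 5.99, 14.9, 23.4 and 15.1 CPM in the CON libraries, at 7.58, 14.5, 10.5, 8.06 and 17.8 CPM in the MAL libraries, and from 0.965 to 2.54 (median 1.86) in MAL-BG. Every CON and MAL library lay above the MAL-BG libraries. The difference on the log2 scale, -3.13 ± 0.34 relative to CON (adjusted p = 1.03e-05) and -2.79 ± 0.33 relative to MAL (adjusted p = 2.05e-05), had the smallest adjusted p of all members in both comparisons. Cacnb4 was lower with no overlap (-2.87 ± 0.40 relative to CON, adjusted p = 7.36e-05, and -2.27 ± 0.39 relative to MAL, adjusted p = 3.06e-04), and Cacnb1 was lower against CON only (-0.77 and -0.33). Cacnb2 was at 10.1 ± 1.61, 11.1 ± 1.33 and 14.8 ± 2.42 CPM, with adjusted p under the threshold in both comparisons (edgeR, 0.0100 and 0.0301) and log2 fold changes of 0.55 and 0.42 that did not pass the fold threshold. It became a higher DEG against CON in 5 of the 16 fits with a library left out (0.45 to 0.64 over all 16). Of the alpha2delta subunits, the outer partners of the pore, a family that holds the targets of gabapentin, Cacna2d2 (-2.84 and -2.61) and Cacna2d3 (-2.78 and -2.48) were lower and Cacna2d1 was not a DEG (-0.30 and -0.36).

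Gamma subunits had the lowest family medians, -3.41 against CON and -3.28 against MAL. In these comparisons 3 of 4 and 4 of 4 members were lower, beside 21.7% and 20.2% of all genes. Cacng2, Cacng3 and Cacng8 code for TARPs, proteins that carry AMPA receptors to the synapse. Cacng3 summed to 52 counts in CON and 56 in MAL versus 4 in MAL-BG, where 5 of 7 libraries had 0. Scaled to library size it was 28.6-fold lower than in CON (95% exact interval 10.5 to 109) and 24.8-fold lower than in MAL (9.16 to 94.1), with counting error only, and the fitted log2 fold change was -4.54 ± 0.75 relative to CON (adjusted p = 2.26e-04) and -4.32 ± 0.73 relative to MAL (adjusted p = 2.80e-04). Cacng3 passed the filter on low counts through CON and MAL libraries only, so these values are a description. Cacng2 (-3.35 and -3.26) was also lower with no overlap. Cacng7 was at 3.38, 8.07, 9.30 and 7.65 CPM in the CON libraries, at 2.38, 9.47, 7.92, 2.90 and 8.68 CPM in the MAL libraries, and from 0 to 1.03 (median 0.535) in MAL-BG. Cacng7 thus had MAL-BG libraries at or under 1.03 CPM and no other library under 2.38, with a log2 fold change of -3.47 ± 0.52 relative to CON (adjusted p = 1.25e-04) and -3.29 ± 0.51 relative to MAL (adjusted p = 1.41e-04). Cacng8 was a DEG against MAL (log2 fold change -1.26 ± 0.42, adjusted p = 0.0214), a call lost without MAL replicate 3 (-1.07), and not against CON (-1.02), where it was called without CON replicate 1 (-1.23) and with counts thinned to the smallest total (-1.79).

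No member was a DEG between MAL and CON, the comparison of the diets without bacteria. It had 0 calls by edgeR and 0 by DESeq2, and 2 members, Cacnb1 and Kcne3, had an unadjusted p under 0.05 in edgeR. The median log2 fold change of the members was -0.26, and leaving out CON replicate 1 gave -0.43, CON replicate 3 -0.15, CON replicate 4 -0.014 and MAL replicate 4 -0.081.

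The filter on low counts bears on these shares. In 26 of the 78 members fewer than 4 MAL-BG libraries had more than 10 counts. These, among them Cacng7, Cacng8 and Kcnq5, passed with the help of CON and MAL libraries. A member that passed only through the groups where it was high had to differ, so the counts and the p-values of such members are a description. Of the 26, 22 and 21 were lower DEGs against CON and MAL. In 14 of the 26, among them Cacng3, Kcnip4 and Kcnh3, no MAL-BG library had more than 10 counts, and all 14 were lower DEGs in both comparisons. In the other 52 of the 78 members, 25 were lower and 1 was higher against CON, and 25 were lower and 5 were higher against MAL, with medians of -0.66 and -0.62. Lower DEGs made up 21.7% and 20.2% of all genes against CON and MAL. These shares were taken without the limit on MAL-BG libraries, so they are not a like comparison for the 52. By mean level over all libraries, lower DEGs against CON were 18 of the 26 members with the lowest CPM, 16 of the middle 26 and 13 of the 26 with the highest. The members had a median level of 3.03 CPM, beside 23.4 for all genes tested. They spanned a median of 55.3 kb of genome beside 24.3 kb, with 5.22 kb of exons beside 4.43 kb and a GC content of 53.9% beside 49.8%. Lower DEGs in both comparisons were 28 of 51 potassium, 4 of 7 sodium and 10 of 20 calcium channel subunits, again without a share of all genes beside them. With length and GC offsets and scaling by mean log2 CPM, 34 members were lower and 7 higher against CON, and 39 lower and 8 higher against MAL. Among named members this setting ended the calls of Cacna1a, Cacna1e, Kcna2, Kcnab2, Kcnj10 and Scn2b against CON and of Cacna1a, Cacng8, Kcna1, Kcna2 and Scn2b against MAL. It made Cacnb2 (1.04), Kcnk12 (1.15), Kcnma1 (0.75) and Kcnq1 (1.07) higher DEGs against CON, and Cacnb2 (0.95), Kcnma1 (0.69) and Scn4b (1.03) against MAL. With the offsets and TMM scaling, Cacnb2 (0.78 and 0.72) was a higher DEG in both comparisons and Kcnk12 (0.91) against CON, Kcnj16 was a lower DEG against CON (-0.81), and the calls of Cacna1a in both comparisons and of Kcna2 against MAL (-0.88) were lost.

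Other genes of electrical excitability, listed as partners of the channels, were described the same way. The list was chosen with earlier results of these data known. Of 37 listed, 32 were tested, and 20 were lower and 0 higher DEGs in each comparison, with a median log2 fold change of -1.68 against CON and -1.28 against MAL. Of all genes, 21.7% and 20.2% were lower and 11.4% and 10.2% were higher against CON and MAL. Unc80 (-3.42 against CON) and Nalcn (-2.71), parts of the sodium leak channel, were lower, and Unc79 (-0.68), another part of it, was not a DEG. Also lower were Cntnap2 (-2.63), which clusters Kv1 channels beside the node, the node proteins Nfasc (-2.08) and Sptbn4 (-2.05), the Kv4 partners Dpp6 (-2.30) and Dpp10 (-2.51), and Slc12a5 (-2.35), the chloride exporter of neurons. Hcn2 (-0.26), Hcn3 (-0.10), Amigo1 (-0.28), Cask (0.13) and Fgf11 (0.21) were not DEGs. The 8 potassium channels left out of the members were mixed, with 3 higher and 2 lower against CON, and 2 higher and 3 lower against MAL. They were set aside by name, and the cells their RNA came from were not tested. Kcnk13 (THIK1), which sets the resting potential of microglia, rose (1.42), and Kcna3 (-3.93) and Kcnj13 (-2.53) fell. Among CON and MAL libraries, Kcnj13 was highest in CON replicate 2 (241 CPM) and lowest in MAL replicate 4 (28.4 CPM). The summed choroid plexus markers were also highest and lowest in these libraries (53052 and 6329 CPM).

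Marker genes of neurons, choroid plexus, astrocytes and ependyma were mostly lower, like the members, while those of the other cell types listed were mixed or higher. The marker lists too were chosen with earlier results of these data known. Of 12 neuron markers, 10 were lower and 0 higher in each comparison, and their summed level was 58.4 to 276 CPM in CON, 83.6 to 229 in MAL and 21.04 to 85.4 in MAL-BG. No neuron marker had a group mean of 0, and Slc17a7, which marks excitatory neurons, was the lowest relative to CON (-4.93). Of 6 choroid plexus markers 6 and 5 were lower, of 9 astrocyte markers 5 and 7 (summed level 284 to 627, 344 to 571 and 147 to 274 CPM), and of 6 ependyma markers 5 and 4 (109.8 to 192, 47.2 to 174 and 23.7 to 86.02 CPM). Oligodendrocyte lineage markers were 3 higher and 1 lower of 9 in each comparison, and their sums overlapped (449 to 1156, 697 to 993 and 583 to 1363 CPM). Of 10 markers of endothelium and mural cells, 2 and 4 were higher and 1 was lower. Microglia markers were higher in 5 of 10 cases and lower in 0, and 7 of 7 neutrophil markers tested (of 8 listed) were higher, with sums of 50.6 to 197, 41.2 to 319 and 178 to 12708 CPM. In bulk libraries of this kind, fewer cells of a type and less RNA per cell cannot be told apart. The part of these other cells in the values of the members was not tested.

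**Figure D4:**
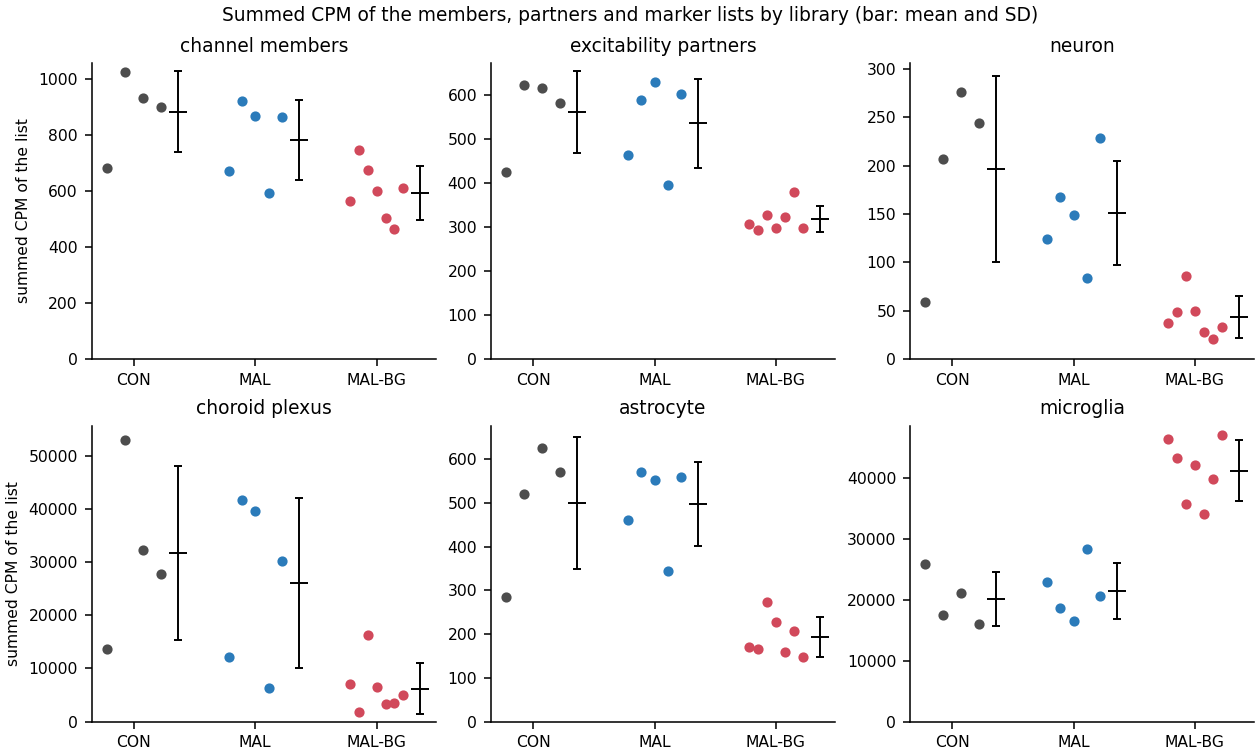
Summed CPM of the channel members, the excitability partners and 4 marker lists in each library, with the mean and SD beside the points. Sums of the members, partners, neuron, choroid plexus and astrocyte lists are lower in MAL-BG on average, and the microglia sum is higher with no overlap.

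Levels of some members also followed marker lists from library to library within CON and MAL. These relations were chosen after their values were seen, among 624 pairs of a member and a list, over 9 libraries each, with two-sided exact permutation tests adjusted by Benjamini-Hochberg over the 624. By r, 17 of the 78 members rose with the neuron list (adjusted permutation p under 0.05), 16 with astrocyte and 15 with endothelium and mural markers. With oligodendrocyte lineage, choroid plexus, ependyma, microglia and neutrophil markers 13, 11, 3, 2 and 0 did. With the microglia list 15 members fell, and with no other list more than 2. The members below are examples. For Kcne2 and the mean of log2(CPM + 0.1) of the choroid plexus markers, r was 0.99 (exact permutation p = 2.76e-06, adjusted p = 5.73e-04) and rho was 1 (p = 5.51e-06, adjusted p = 0.00115), and r was 0.98 without the 2 libraries farthest from the median and 0.96 within the 7 MAL-BG libraries. For Kcnk1, r was 0.997 with the same permutation p, rho was 1, and r was 0.99 without those 2 libraries and 0.96 within MAL-BG. Cacna2d2 (r = 0.97, rho = 1, adjusted permutation p = 5.73e-04 and 0.00115), Kcnh1 (0.97 and 0.97, adjusted p = 0.00172 and 0.0147), Kcnh2 (0.98 and 0.97, adjusted p = 0.00378 and 0.0147) and Cacna2d3 (0.93 and 0.93, adjusted p = 0.00761 and 0.0292) followed the same list, with r between 0.94 and 0.98 without the 2 farthest libraries. Within MAL-BG r was 0.64 for Cacna2d2, 0.95 for Kcnh1, 0.73 for Kcnh2 and 0.71 for Cacna2d3. Cacnb3 followed the neuron list in CON and MAL (r = 0.93 and rho = 0.97, adjusted permutation p = 0.00659 and 0.0147, and r = 0.94 without the 2 farthest), and within MAL-BG r was 0.22. Kcnd1 rose with the microglia list in CON and MAL (r = 0.91 and rho = 0.92, adjusted permutation p = 0.0145 and 0.0372, and r = 0.85 without the 2 farthest), and within MAL-BG r was 0.16. It also fell with the endothelium and mural, neuron and astrocyte lists in CON and MAL (r = -0.92, -0.91 and -0.91, adjusted permutation p = 0.0233, 0.0268 and 0.0283). Without the 2 farthest libraries these r were -0.86, -0.58 and -0.52, and within MAL-BG they were 0.23, 0.58 and 0.28. Which list Kcnd1 or any other member depends on was not tested.

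**Figure D5:**
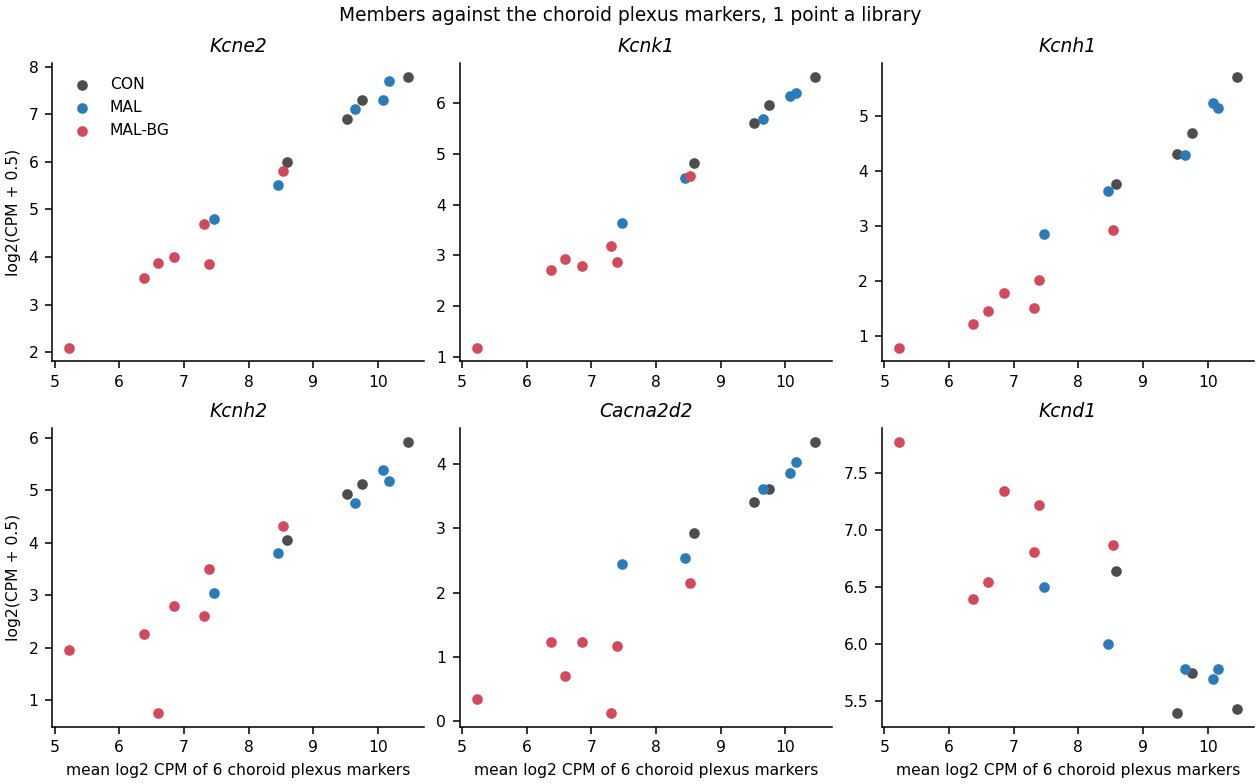
Log2(CPM + 0.5) of 6 members against the mean log2(CPM + 0.1) of the 6 choroid plexus markers, 1 point a library, coloured by group. Kcne2, Kcnk1, Kcnh1, Kcnh2 and Cacna2d2 rise with the markers, and Kcnd1 is lower in the libraries with more of them.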

How the data were processed

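RNA of CD11b+ brain cells was sequenced from 16 samples (CON, n = 4; MAL, n = 5; MAL-BG, n = 7). Per the study's methods, libraries were stranded and of mRNA, STAR placed the paired reads on GRCm38.p6, and HTSeq (listed as 2.5 in the submitters' processing notes, while the methods give another version) assigned them to genes. The authors deposited the raw counts, and tested them with DESeq2 in a model of batch and condition. The counting mode and the annotation are not given in the sources used here; values of genes that overlap or resemble each other are uncertain to that extent. Groups came from the column names, whose numbers match no sample title.

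Counts were analysed in R 4.3.3 with edgeR 4.0.16 (TMM scaling, quasi-likelihood test, all 16 libraries in 1 fit, Benjamini-Hochberg adjustment over the 14565 genes that exceeded 10 counts in 4 or more libraries). The batch term of the authors was left out of every test here, since no source used here names the batch of a library. CPM are relative to TMM-scaled library sizes. The steps were tested on simulated data. Libraries of a group differed by more than counting noise (a chi-square statistic never under 9.80 times its degrees of freedom). Alternatives were other scalings and filters, DESeq2 1.42.0, adjusted p alone, fits of the compared groups, thinned counts, offsets for length and GC content, and each library left out. Exon lengths came from GENCODE and positions from RefSeq, both on GRCm38. Members, gene lists and marker lists were chosen with earlier results of these data known. Genes named one by one were well-known subunits of each family, all members called higher, the 5 lowest log2 fold changes against CON among those called in both comparisons, and the member with the highest mean CPM of each family. The other members are named too, except 5 that are not reported here one by one but stay in the fits, counts and medians. The offsets with TMM scaling and the correlations were added after the data were seen, and the latter used log2(CPM + 0.5) of a member and the mean of log2(CPM + 0.1) of a marker list.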

Additional observations from a re-analysis of the deposited data

Results flagged for a closer look

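The values by library of 47 named members and of the summed level of the members were examined in each group, 144 groups of values in all, for a library that stands far from the others of its group relative to the range of the group. For independent, normally distributed values chance marks about 1 in 20 groups this way. The levels here need not be so distributed or independent, and the 14 groups that were marked are a description. Of these 14, 9 were in MAL-BG, and 7 of the 9 were in MAL-BG replicate 3, where the value was the highest each time, with 9.51 CPM for Cacna2d1 (next highest 5.66), 3.93 for Cacna2d2 (1.86), 0.207 for Cacng3 (0.0542), 55.1 for Kcne2 (25.2), 7.17 for Kcnh1 (3.55), 23.0 for Kcnk1 (8.55) and 1.24 for Kcnn2 (0.488). The summed choroid plexus markers were also highest in that MAL-BG library, at 16220 CPM. Without it, 49 members were lower against CON and 49 against MAL. The others in MAL-BG were Kcnab2 in replicate 5 (30.3 CPM, next 13.6) and Kcnc1 in replicate 2 (0.843, next 0.325). In MAL, replicate 5 was high for Kcnc1 (7.09 CPM, next 2.13) and Scn8a (6.61, next 2.58). In CON, Cacna1d was high in replicate 1 (95.1 CPM, next 56.1), Kcnh3 in replicate 3 (10.2, next 4.27) and Kcnn2 in replicate 4 (1.21, next 0.691).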

How the results depend on the processing

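The counts of lower DEGs among the members stayed within 1.5 times their value under every alternative. Leaving out 1 library gave 41 to 49 against CON and 40 to 49 against MAL, and medians of -1.48 to -1.12 and -1.17 to -0.98 (-0.43 to -0.014 in MAL versus CON). The counts of higher DEGs were small and moved. Against CON there were 2 with DESeq2 size factors, 2 with the DESeq2 test, 3 with adjusted p alone, 7 with length and GC offsets and scaling by mean log2 CPM, 4 with these offsets and TMM, and 1 to 4 with 1 library left out (4 without CON replicate 1, 3 without CON replicate 3, MAL-BG replicate 1 or MAL-BG replicate 4, and 2 without CON replicate 4 or MAL-BG replicate 3, 5 or 6). Against MAL there were 8 with the offsets and mean log2 CPM scaling, and 4 to 5 with 1 library left out. That setting moved the median of all genes from -0.04 to 0.21 against CON and from -0.03 to 0.20 against MAL, and the DEGs among the members were then 34 lower and 7 higher (82.9% lower in place of 97.9%) and 39 lower and 8 higher, with 1 partner gene higher in each comparison. The cause was not tested.

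Signs changed for members that were not DEGs and for Cacna1a against CON. With the offsets and mean log2 CPM scaling, log2 fold changes against CON were 0.036 for Cacna1a, 0.011 for Cacna1c, 0.45 for Cacna1d, 0.21 for Cacna2d1, 0.31 for Kcnab1 and 0.35 for Scn3a, and against MAL 0.38 for Cacna1c, 0.33 for Cacna1d, 0.15 for Cacna2d1 and 0.48 for Scn3a. With the offsets and TMM they were 0.21 for Cacna1d, 0.026 for Kcnab1, -0.0094 for Kcnip3 and 0.063 for Scn3a against CON, and 0.15 for Cacna1c, 0.12 for Cacna1d and 0.24 for Scn3a against MAL. Thinned to the smallest total, Scn3a was at 0.00382 against MAL. With 1 library left out, Cacna1d lay between -0.21 and 0.17, Kcnab1 between -0.46 and 0.20 and Scn3a between -0.50 and 0.18 against CON, and Kcnab1 between -0.027 and 0.31, Kcnma1 between -0.011 and 0.17 and Scn3a between -0.19 and 0.20 against MAL.

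Over 47 named members and 940 values, 893 kept direction and side of the threshold, 15 lost the call, 14 gained it and 18 changed sign. A prior count of 0.5 was not run, since no log2 level with a prior count is reported. Members with few counts in MAL-BG have folds that depth limits. No paired analysis was possible because the numbers of the columns match no sample title.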
